A study of Mus musculus with 6 samples.

Results

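The SLC25 mitochondrial carriers are a family of inner membrane proteins, taken here as every protein-coding row of the expression table whose symbol is Slc25a followed by a number, plus Ucp1, Ucp2 and Ucp3. The rule found 50 genes among the 41214 in the table and used no measured value. Of these, 39 had enough reads to be tested. Total RNA came from cultured cells of mouse mammary tumors, grown as explants from NMuMG, an epithelial line of the normal mouse mammary gland, that express Neu-NT, an activated form of the growth factor receptor ErbB2. The 3 libraries called shCdGAP came from such cells with a hairpin that depletes CdGAP, which switches off the small GTPases Cdc42 and Rac1 and is encoded by Arhgap31. The 3 libraries called shCON came from such cells with a control hairpin. The genotype label sets the groups apart, while the cell type label names the control hairpin for all 6 libraries. All 6 libraries thus shared the ErbB2 background, and the culture medium contained insulin and the selection drug G418. The labels do not say whether a population was 1 clone, how many tumors it came from, or whether the libraries of a group were separate cultures. Any p-value below rests on library-to-library spread alone, and that spread may be technical.

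Carriers of this family move metabolites across the inner mitochondrial membrane, which small charged molecules do not cross unaided. They exchange ADP for ATP, bring in phosphate, export citrate for lipid synthesis, run the malate-aspartate shuttle that carries reducing equivalents from the cytosol, and supply the matrix with amino acids, cofactors, nucleotides and iron. The uncoupling proteins are members that let protons leak back into the matrix or move small anions. In tumor cells the family ties glycolysis, lipid synthesis and one-carbon metabolism to the respiratory chain.

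Expression was read as FPKM, a level scaled by transcript length and by library depth, so that levels can be set side by side between genes. Libraries held 19176540 to 26824249 reads. The hairpin's target, Arhgap31, was at 0.149, 0.826 and 0.748 FPKM in shCdGAP replicates 1, 2 and 3 and at 1.19, 1.30 and 1.35 FPKM in the shCON replicates. Its values were lower in 3 of 3 shCdGAP libraries, and the mean of shCdGAP was 0.449 times that of shCON. The limma test on log2(FPKM + 1), a scale that understates changes of low genes, missed the threshold (log2 fold change -0.56, SE 0.19, adjusted p = 0.0836). With limma-voom on reads the log2 fold change was -1.49 (adjusted p = 0.121). The limma test passed the threshold without shCdGAP replicate 1 (log2 fold change -0.35, adjusted p = 0.0171). That library stood apart: across genes it correlated at 0.948 and 0.938 with shCdGAP replicates 2 and 3, whose own correlation was 0.996. Those 2 libraries correlated at 0.955 to 0.958 with shCON replicates 2 and 3, and at 0.943 and 0.945 with shCON replicate 1. The epithelial markers Krt8, Krt18, Krt19 and Cdh1 were abundant and summed to 4000 to 6554 FPKM in shCdGAP and 3616 to 5063 in shCON, while Cldn7 was at 0. Cdh1, the adhesion protein E-cadherin, was at 184, 152 and 167 FPKM in shCdGAP and at 37.9, 56.9 and 57.2 FPKM in shCON, higher in every shCdGAP library (log2 fold change 1.73, adjusted p = 0.00220 with limma). The lists for endothelial cells, fibroblasts and striated muscle summed to 1.10 FPKM or less each. The macrophage list summed to 3.02 to 9.68 FPKM in shCdGAP and 13.1 to 17.8 in shCON. Its main gene, Cd68, was lower in every shCdGAP library (log2 fold change -1.41, adjusted p = 0.0465 with limma). The list did not move as a whole. Csf1r had the opposite sign without passing (log2 fold change 0.35, adjusted p = 0.229 with limma), and its groups overlapped. Ptprc and Lyz2 had too few reads to be tested, and Adgre1 was at 0. The adipocyte list summed to 0.387 to 1.01 FPKM in shCdGAP and 2.19 to 4.12 in shCON, nearly all of it Fabp4, with Plin1 at 0. In such bulk RNA, fewer cells of a type and less RNA per cell cannot be told apart. The part of these marker differences in the carrier values was not tested.

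Depletion of CdGAP went with changes in a minority of the carriers, in both directions. Slc25a23, a calcium-regulated carrier that exchanges ATP-Mg for phosphate, showed the largest rise, and Slc25a45, a carrier of long unsettled substrate, showed the largest fall. The pair of aspartate/glutamate carriers moved in opposite directions, Slc25a13 up and Slc25a12 down. At an adjusted p under 0.05 with limma, 7 of 39 tested carriers passed (17.9%), 4 higher (10.3%) and 3 lower (7.69%). Over all 13483 genes tested, 21.0% passed, 9.92% higher and 11.1% lower, so the share of changed carriers was near the background. The groups did not overlap for 19 of 39 tested carriers (48.7%), against 44.1% of all genes. The median log2 fold change was -0.025 for the carriers and -0.010 for all genes, and the median absolute value was 0.19 for the carriers and 0.25 for all genes. The count moved with single libraries, and so did the share of all genes that passed. Without shCdGAP replicate 1 it was 7 higher and 7 lower, where 39.3% of all genes passed. It was 2 and 1 without shCON replicate 1 (12.6% of all genes) or shCdGAP replicate 2 (10.6%), and 1 and 1 without shCON replicate 2 (9.18%) or 3 (9.87%). Without shCdGAP replicate 3 it was 4 and 2 (15.7%), with Slc25a15 and Slc25a40 lost and Slc25a27 gained. With the replicate number of each library as a term (the replicate block) it was 3 and 3, where 18.2% of all genes passed.

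**Figure D1:**
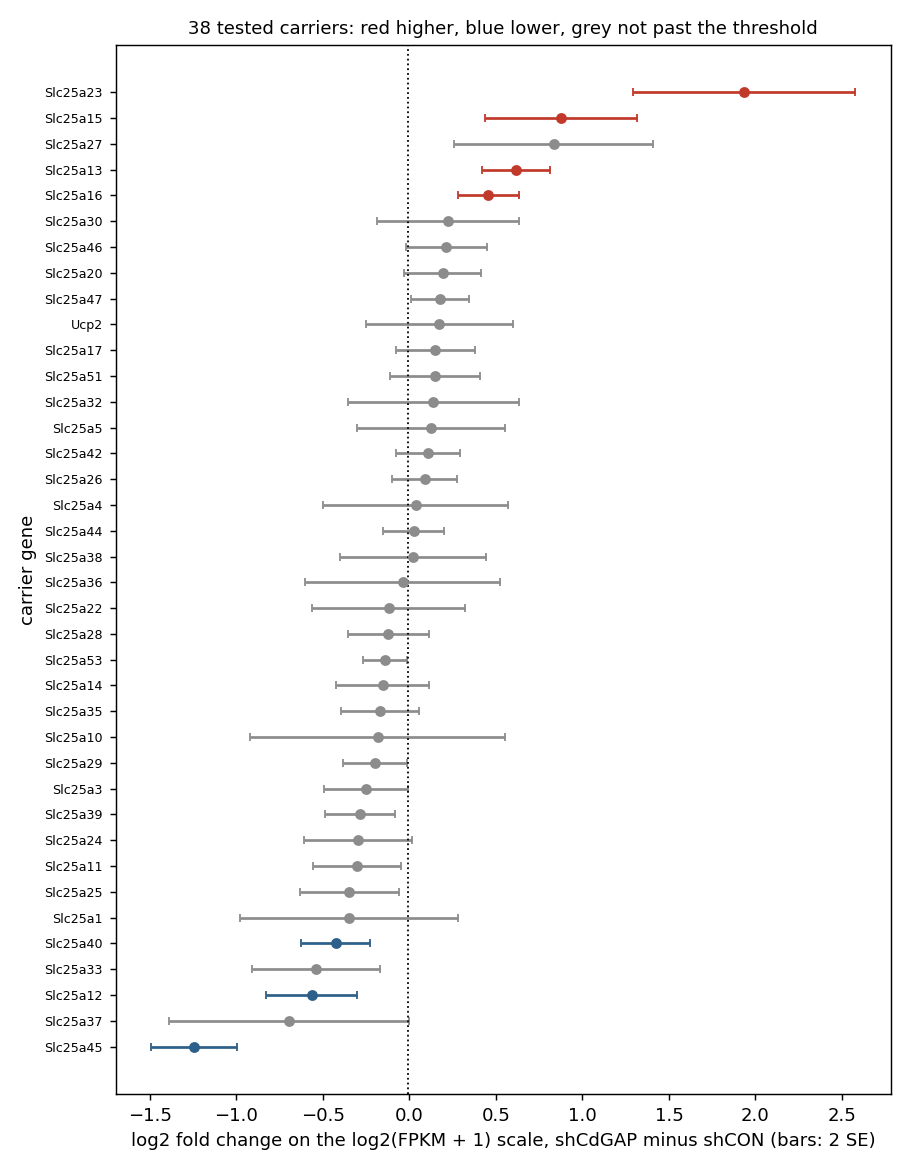
Log2 fold change of shCdGAP over shCON on the log2(FPKM + 1) scale for 38 of the 39 tested carriers (points), with bars of 2 standard errors and a dotted line at the median of all tested genes. The 4 red carriers rose, the 3 blue ones fell, and the 31 grey ones, from -0.69 to 0.84, did not pass the threshold.

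The sequences before the start of 3 of these genes are shown because Slc25a23 and Slc25a45 had the largest changes, and because Slc25a40 was the one called carrier whose promoter window held CACCTG, the E-box motif of the ZEB and SNAIL repressors that the study's title bears on. The sequences are from RefSeq on GRCm38 and run 5′ to 3′ on the gene's strand: Slc25a23 at chr17:57059864-57060113 on the minus strand, Slc25a45 at chr19:5877572-5877807 on the plus strand, and Slc25a40 at chr5:8422717-8422837 on the plus strand. Capitals mark CACCTG and the GC box GGGCGG, or its reverse complement CCGCCC.
Slc25a23: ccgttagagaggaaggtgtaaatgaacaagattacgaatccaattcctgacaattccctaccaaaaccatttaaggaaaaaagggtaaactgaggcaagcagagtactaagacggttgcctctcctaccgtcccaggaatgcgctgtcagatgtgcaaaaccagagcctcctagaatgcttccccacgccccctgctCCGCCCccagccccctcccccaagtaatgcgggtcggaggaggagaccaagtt
Slc25a45: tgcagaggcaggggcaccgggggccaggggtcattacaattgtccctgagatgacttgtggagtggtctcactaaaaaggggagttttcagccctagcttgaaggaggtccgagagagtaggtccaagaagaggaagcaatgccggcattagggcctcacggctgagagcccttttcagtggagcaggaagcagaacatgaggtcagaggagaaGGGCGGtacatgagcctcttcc
Slc25a40: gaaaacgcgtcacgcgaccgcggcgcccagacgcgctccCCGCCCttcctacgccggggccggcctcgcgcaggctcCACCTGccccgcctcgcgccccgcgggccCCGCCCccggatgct

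In windows of 300 bases, from 250 before to 50 after the start, RefSeq promoters were matched for 39 of the 50 members and for all 7 called ones. On either strand, CACCTG was found in 9 of the 39 carrier windows (23.1%) and in 20.0% of all 27025 windows. Of the 7 called carriers 1 held it, Slc25a40, where 20.0% of all windows did, and it began 44 bases before the start. CCGGAAG, the core of the ETS factor GABPA, was in 7 carrier windows (17.9%) and in 9.12% of all, and in 0 of the 7 called carriers. The core motif of NRF1 was in 2 carrier windows (5.13%, against 4.78%), and AAGGTCA, the half-site of estrogen-related receptors, in 1 (2.56%, against 4.66%). GGGCGG, added after the sequences had been seen, was in 31 carrier windows (79.5%) and in 35.9% of all, and the median GC content was 60.3% in the carrier windows and 52.7% in all. The 27025 windows were not limited to genes with reads in these libraries, so the shares compare unlike sets. The matches do not overlap in the called carriers. They are letters in a window, and no binding was measured.

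Levels differed widely over the family, and few members made up most of it. The summed level of all carriers was 1172, 1301 and 1422 FPKM in shCdGAP replicates 1, 2 and 3 and 1304, 1327 and 1344 FPKM in the shCON replicates, so the groups overlapped. The 5 carriers of highest mean, Slc25a5, Slc25a4, Slc25a3, Slc25a39 and Slc25a17, held 56.3% to 67.5% of that sum in each library. In all, 4 carriers had a mean of at least 100 FPKM, 15 lay from 10 to 100, 15 from 1 to 10, and 10 above 0 and under 1. No read was found in any library for Slc25a18, Slc25a31, Slc25a41, Slc25a43, Slc25a54 and Ucp1, the thermogenic uncoupling protein of brown fat. A count of 0 allows up to 3 reads per library, which is counting error only. A further 5 carriers, Slc25a2, Slc25a21, Slc25a34, Slc25a48 and Ucp3, had reads but at most 34 over all libraries and were not tested.

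**Figure D2:**
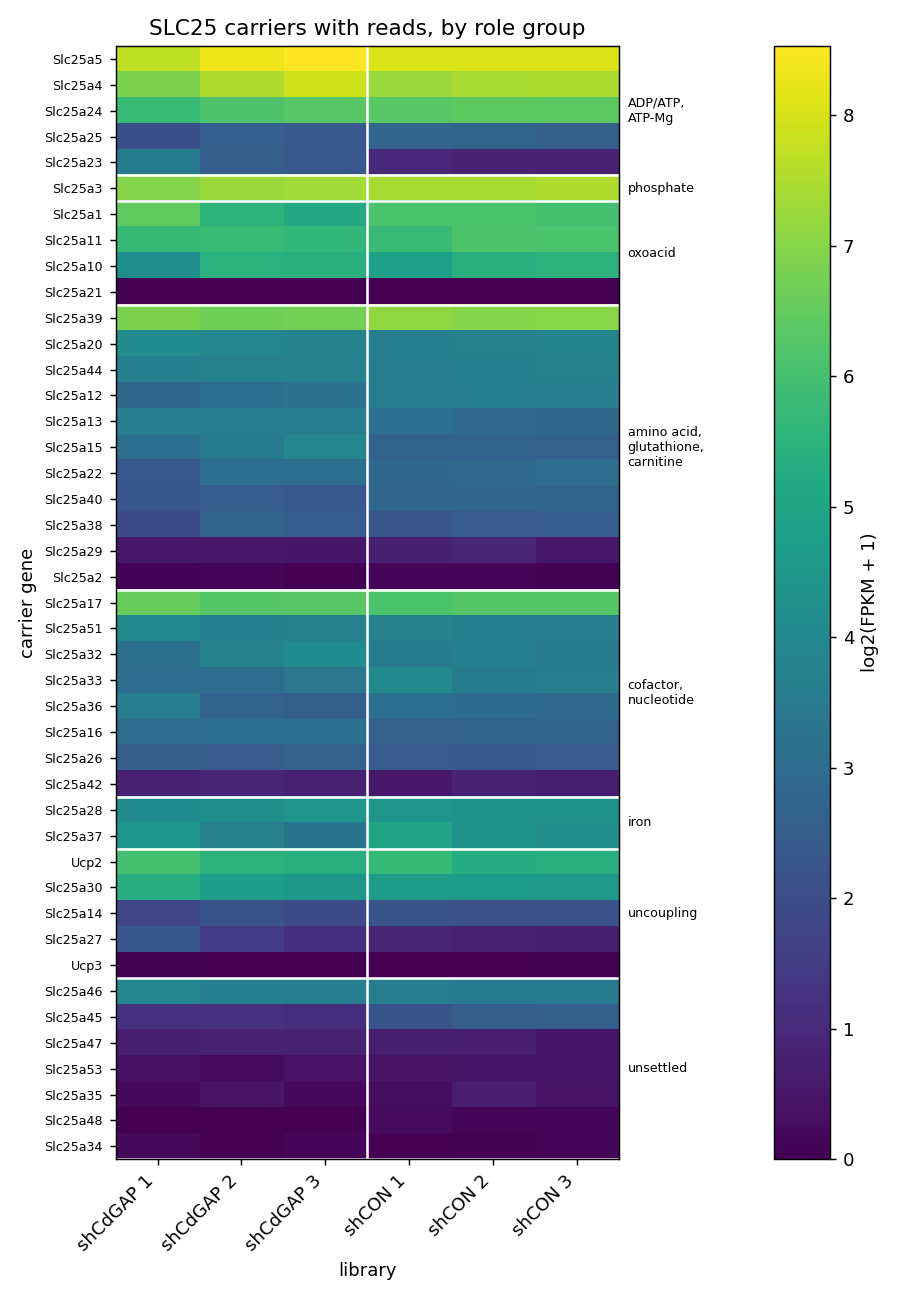
Level of 43 of the 44 carriers with reads (rows, by role group) in each of the 6 libraries (columns), as log2(FPKM + 1) on a colour scale from dark (low) to yellow (high). The ADP/ATP carriers Slc25a5 and Slc25a4, the phosphate carrier Slc25a3 and the glutathione carrier Slc25a39 form the bright rows in every library.

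Among the 8 adenine nucleotide carriers, of which 5 were tested, 1 rose and 0 fell, where 21.0% of all genes passed. Slc25a23 was at 10.6, 4.69 and 3.9997 FPKM in shCdGAP replicates 1, 2 and 3 and at 0.958, 0.749 and 0.727 FPKM in the shCON replicates. Every shCdGAP library was higher than every shCON library, and replicate 1 was the highest. The means were 6.44 ± 3.64 and 0.811 ± 0.128 FPKM (SD, n = 3 each), a ratio of 7.93, and the limma log2 fold change on the log2(FPKM + 1) scale was 1.93 (SE 0.32, adjusted p = 0.00979). That scale understates changes of low genes, and the log2 fold change was 2.72 with a pseudocount of 0.1 FPKM and 2.86 with limma-voom on reads. Without shCdGAP replicate 1 it was 1.56 (adjusted p = 2.1e-04).

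Slc25a23 lies on chromosome 17, from 57043711 to 57059863 on the minus strand (mm10), and overlaps Crb3, an apicobasal polarity gene on the opposite strand. Crb3 was at 4.78, 3.90 and 2.99 FPKM in shCdGAP and at 0.166, 0.535 and 0.430 FPKM in shCON, and rose as well (log2 fold change 1.82, adjusted p = 0.00150 with limma). The annotation gives 0 exon bases shared by the 2 genes, and the handling of strand is not given in the sources used here. The next carrier gene, Slc25a41, lies 2057 bases away and had 0 reads. Chromosome 17 as a whole had a median log2 fold change 0.36 above that of all genes, counting those at 3 FPKM or more on average, the highest of any chromosome. The part of the overlap or of the chromosome in the rise of Slc25a23 was not tested.

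The other calcium-regulated ATP-Mg carriers did not pass. Slc25a24, the most abundant of them, was at 53.1, 70.6 and 77.9 FPKM in shCdGAP and at 79.1, 84.2 and 81.9 FPKM in shCON, with shCdGAP below shCON in every library (log2 fold change -0.30, SE 0.16, adjusted p = 0.239). The ratio of the Slc25a23 level to the Slc25a24 level was 0.200, 0.0664 and 0.0514 in shCdGAP and 0.0121, 0.00889 and 0.00888 in shCON, so Slc25a24 remained the higher of the 2 in all 6 libraries. Slc25a25 had a log2 fold change of -0.35 (adjusted p = 0.144).

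The ADP/ATP translocases, which hand newly made ATP to the cytosol, were the most abundant carriers. Slc25a5, the form typical of dividing cells, was at 209, 320 and 369 FPKM in shCdGAP and at 265, 267 and 271 FPKM in shCON. Slc25a4, the form typical of heart and muscle, was at 116, 181 and 242 FPKM in shCdGAP and at 152, 173 and 179 FPKM in shCON. For both, shCdGAP replicate 1 was the lowest library and replicates 2 and 3 the highest, and the groups overlapped. The log2 fold changes were 0.12 (SE 0.21, adjusted p = 0.727) for Slc25a5 and 0.04 (SE 0.27, adjusted p = 0.942) for Slc25a4 with limma. The sign for Slc25a4 turned under library size scaling (-0.022). The ratio of Slc25a5 to Slc25a4 was 1.70 ± 0.15 in shCdGAP and 1.60 ± 0.12 in shCON (SD, n = 3 each), a difference within the spread. The 2 genes are close paralogs, so reads may have been split between them.

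Slc25a3, the phosphate carrier that feeds ATP synthase, was at 127, 152 and 162 FPKM in shCdGAP and at 169, 171 and 183 FPKM in shCON. All shCdGAP libraries were below all shCON libraries, but the change did not pass (log2 fold change -0.25, SE 0.12, adjusted p = 0.206).

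The amino acid group has 12 members, of which 10 were tested. Of these, 2 rose and 2 fell, where 21.0% of all genes passed, and no difference from the other groups was tested. Slc25a13 and Slc25a12 encode citrin and aralar, the 2 aspartate/glutamate exchangers of the malate-aspartate shuttle, which do the same transport and are both regulated by calcium. Slc25a13 was at 11.0, 11.1 and 11.3 FPKM in shCdGAP and at 7.64, 6.72 and 6.44 FPKM in shCON. It was higher in every shCdGAP library (log2 fold change 0.62, SE 0.10, adjusted p = 0.00826 with limma). Slc25a12 was at 6.13, 7.39 and 8.60 FPKM in shCdGAP and at 11.0, 11.6 and 11.4 FPKM in shCON. It was lower in every shCdGAP library (log2 fold change -0.57, SE 0.13, adjusted p = 0.0291 with limma).

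In FPKM, the order of the 2 exchangers was thus reversed between the groups. The FPKM of Slc25a13 over that of Slc25a12 was 1.79, 1.51 and 1.32 in shCdGAP and 0.696, 0.581 and 0.567 in shCON. Which of the 2 is the higher rests on the scaling by transcript length. In reads, Slc25a12 was the higher in every library. It had 1029, 1191 and 1569 reads in shCdGAP, against 782, 764 and 880 for Slc25a13. In shCON it had 1558, 2336 and 2232, against 461, 577 and 538. The shift of the ratio between the groups does not depend on length. The Slc25a13 call was lost without shCON replicate 2 (adjusted p = 0.0556) or 3 (adjusted p = 0.0517). The Slc25a12 call was lost without shCdGAP replicate 2 or any 1 of the shCON libraries (adjusted p from 0.0835 to 0.122).

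Slc25a15, the ornithine carrier of the urea cycle and of polyamine supply, was at 7.51, 10.7 and 14.6 FPKM in shCdGAP and at 5.30, 5.47 and 5.16 FPKM in shCON. All shCdGAP libraries were higher, with a wide spread, and the means differed by a ratio of 2.06 (log2 fold change 0.88, SE 0.22, adjusted p = 0.0384 with limma). The call was lost under the replicate block (adjusted p = 0.0557), without a filter on low genes, and without any 1 library other than shCdGAP replicate 1 (adjusted p from 0.0557 to 0.128). Slc25a2, the second ornithine carrier, had at most 4 reads in a library.

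Slc25a39 and Slc25a40 bring glutathione into mitochondria. Slc25a40 was at 3.86, 4.56 and 4.12 FPKM in shCdGAP and at 6.06, 6.11 and 5.68 FPKM in shCON, lower in every shCdGAP library (log2 fold change -0.43, SE 0.10, adjusted p = 0.0300 with limma). The call was lost with the replicate block (adjusted p = 0.0566), and without shCdGAP replicate 2 or 3 or any 1 shCON library (adjusted p from 0.0663 to 0.140). Its more abundant paralog Slc25a39 was at 115, 100 and 108 FPKM in shCdGAP and at 139, 126 and 129 FPKM in shCON. It was also lower in every shCdGAP library without passing (log2 fold change -0.29, SE 0.10, adjusted p = 0.0977), and the ratio of Slc25a39 to Slc25a40 was 26.0 ± 3.96 in shCdGAP and 22.1 ± 1.26 in shCON (SD, n = 3 each). The start of Slc25a40 lies 134 bases from Dbf4, a replication gene on the opposite strand, which did not pass (log2 fold change -0.42, adjusted p = 0.612).

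The remaining amino acid carriers did not pass. Slc25a20, which takes acylcarnitines into the matrix for fatty acid oxidation, was at 16.2, 14.1 and 13.2 FPKM in shCdGAP and at 11.8, 12.3 and 13.4 FPKM in shCON, with overlap (log2 fold change 0.19, SE 0.11, adjusted p = 0.277). Slc25a44, the carrier of branched-chain amino acids, kept within 11.2 to 12.5 FPKM in all 6 libraries (adjusted p = 0.881). The glutamate carrier Slc25a22, the glycine carrier Slc25a38 and the basic amino acid carrier Slc25a29 had log2 fold changes of -0.12, 0.02 and -0.20. Slc25a18, the second glutamate carrier, had no read.

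Of the 9 cofactor and nucleotide carriers, all tested, 1 rose and 0 fell, where 21.0% of all genes passed. Slc25a16, which has been linked to coenzyme A supply of the matrix, was at 7.37, 7.49 and 7.77 FPKM in shCdGAP and at 5.08, 5.29 and 5.30 FPKM in shCON. The groups were tight and apart (7.54 ± 0.203 and 5.22 ± 0.124 FPKM, SD, n = 3 each; log2 fold change 0.46, SE 0.09, adjusted p = 0.0153 with limma). The call was lost without shCdGAP replicate 2 or any 1 shCON library (adjusted p from 0.0523 to 0.0838). The other gene linked to coenzyme A transport, Slc25a42, was under 1 FPKM in all libraries (log2 fold change 0.11, adjusted p = 0.476).

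Slc25a17, a peroxisomal member of the family that moves coenzyme A, FAD and NAD, was the most abundant of this group, at 92.7, 77.2 and 78.2 FPKM in shCdGAP and at 68.8, 76.8 and 77.1 FPKM in shCON. The groups just failed to overlap, and the change did not pass (log2 fold change 0.15, SE 0.11, adjusted p = 0.407). Slc25a51, the NAD carrier of mitochondria, was at 15.6, 11.8 and 12.3 FPKM in shCdGAP and at 12.7, 11.6 and 11.1 FPKM in shCON (log2 fold change 0.15, SE 0.13, adjusted p = 0.480). The largest value among the others, chosen after the values were seen, was that of Slc25a33, a pyrimidine nucleotide carrier, at 7.32, 7.27 and 9.41 FPKM in shCdGAP and 15.5, 10.1 and 11.0 FPKM in shCON. It was lower in every shCdGAP library (log2 fold change -0.54, SE 0.19, adjusted p = 0.0939). The S-adenosylmethionine carrier Slc25a26 had a log2 fold change of 0.09.

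**Figure D3:**
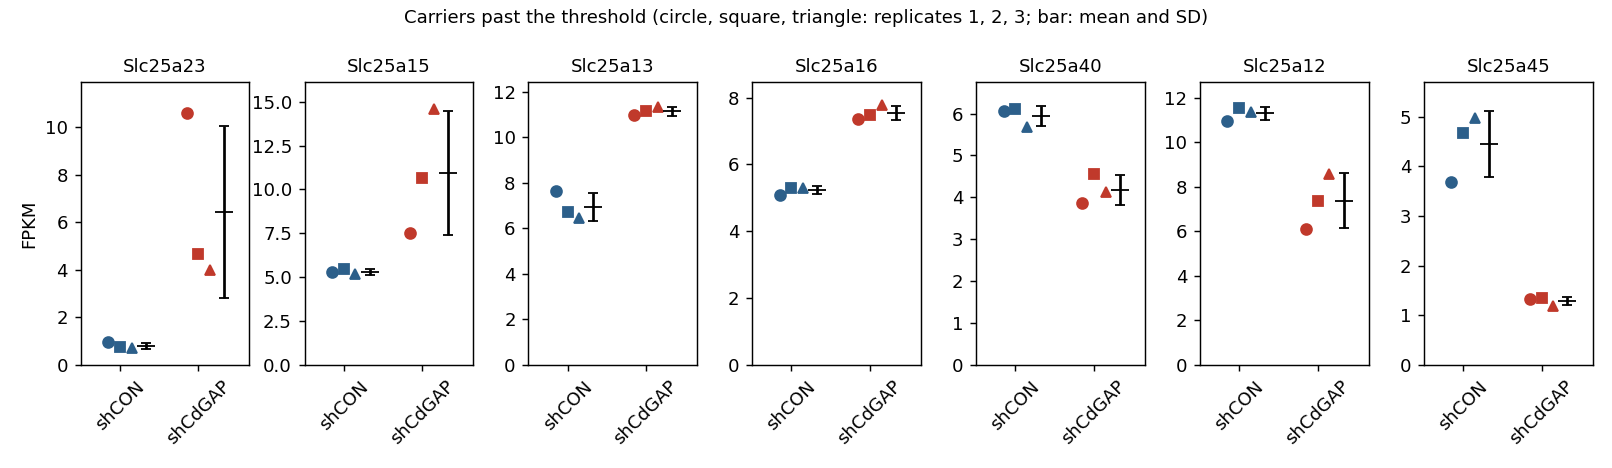
Level in FPKM (vertical axes from 0, a different scale in each panel) of the 7 carriers that passed the threshold, in the shCON libraries (blue) and the shCdGAP libraries (red), with the mean and SD of each group in black. No panel shows overlap between groups; Slc25a23 and Slc25a15 have the widest spread in shCdGAP, and Slc25a13 and Slc25a16 the narrowest relative to their means.

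None of the citrate, dicarboxylate and oxoacid carriers passed with limma (4 members, 3 tested; 0 at an unadjusted p under 0.05, 0 with limma-voom, 0 in the authors' deposited table). Slc25a1, which exports citrate for fatty acid and sterol synthesis, was at 87.1, 44.9 and 36.2 FPKM in shCdGAP and at 69.1, 68.1 and 63.3 FPKM in shCON. Replicate 1 of shCdGAP was the highest of the 6 libraries and replicates 2 and 3 were the lowest, and the change did not pass (log2 fold change -0.35, SE 0.31, adjusted p = 0.485). Slc25a11, the oxoglutarate/malate partner of the aspartate/glutamate exchangers in the malate-aspartate shuttle, was at 52.2, 53.3 and 49.6 FPKM in shCdGAP and at 54.0, 69.9 and 69.2 FPKM in shCON. All shCdGAP values were lower, without passing (log2 fold change -0.30, SE 0.13, adjusted p = 0.154). The dicarboxylate carrier Slc25a10 ranged from 17.9 to 42.3 FPKM in shCdGAP and from 27.3 to 43.5 FPKM in shCON (adjusted p = 0.767), and Slc25a21, the oxodicarboxylate carrier, had 1 read in all.

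The mitoferrins, which bring iron in for haem and iron-sulfur clusters, did not pass with limma (0 of 2; 0 at an unadjusted p under 0.05, 0 with limma-voom, 0 in the authors' deposited table). Slc25a37, the form of erythroid cells, was at 21.4, 12.0 and 8.91 FPKM in shCdGAP and at 30.7, 20.0 and 17.4 FPKM in shCON. The library numbered 1 was the highest in each group, and within each number shCdGAP was below shCON. Its log2 fold change of -0.69 did not pass (SE 0.35, adjusted p = 0.217 with limma), and it passed under the replicate block (adjusted p = 0.0289). Slc25a28, the widely expressed form, was at 16.2, 17.9 and 21.1 FPKM in shCdGAP and at 20.7, 19.5 and 19.8 FPKM in shCON (log2 fold change -0.12, SE 0.12, adjusted p = 0.509). The ratio of Slc25a37 to Slc25a28 was 0.805 ± 0.463 in shCdGAP and 1.13 ± 0.318 in shCON (SD, n = 3 each), and overlapped.

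Of the uncoupling proteins and their closest relatives, 4 of 6 were tested and 0 passed with limma (1 at an unadjusted p under 0.05, 0 with limma-voom, 1 in the authors' deposited table). Ucp2, which is widely expressed and has been described as a carrier of small metabolites, was at 64.3, 43.2 and 40.6 FPKM in shCdGAP and at 51.5, 37.6 and 40.5 FPKM in shCON. The library numbered 1 was the highest in each group (log2 fold change 0.17, SE 0.21, adjusted p = 0.615 with limma). Without shCdGAP replicate 1 the sign turned (-0.030). Slc25a30 was at 38.7, 26.4 and 22.0 FPKM in shCdGAP and at 25.3, 23.9 and 22.9 FPKM in shCON (log2 fold change 0.22, SE 0.21, adjusted p = 0.499). That value was 0.0020 without shCdGAP replicate 1 and 0.40 without shCdGAP replicate 3. Slc25a27, a relative best known from brain and named after its values were seen, was at 3.89, 1.80 and 1.23 FPKM in shCdGAP and at 0.906, 0.704 and 0.654 FPKM in shCON. It was higher in every shCdGAP library and missed the threshold (log2 fold change 0.84 on the log2(FPKM + 1) scale, SE 0.29, adjusted p = 0.0943 with limma). The ratio of its means was 3.06, and limma-voom on reads gave a log2 fold change of 1.45 (adjusted p = 0.0807). Like Slc25a23 it lies on chromosome 17. Slc25a14 had a log2 fold change of -0.15. Ucp3, the form of skeletal muscle, had at most 3 reads in a library, and Ucp1 had none.

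Among the 8 carriers of unsettled or other roles, of which 5 were tested, 0 rose and 1 fell, where 21.0% of all genes passed. Slc25a45 was at 1.34, 1.34 and 1.18 FPKM in shCdGAP and at 3.69, 4.68 and 4.98 FPKM in shCON. The highest shCdGAP value was well below the lowest shCON value, and the mean of shCON was 3.46 times that of shCdGAP. Its log2 fold change was -1.25 (SE 0.12, adjusted p = 0.00157 with limma), -1.70 with a pseudocount of 0.1 FPKM and -1.79 with limma-voom. With 1 library left out the log2 fold change lay between -1.35 and -1.17, and the adjusted p was at most 0.0139. Slc25a45 and Slc25a23 were the carriers whose calls held under all 15 alternative settings. Slc25a45 lies on chromosome 19, from 5877808 to 5885878 on the plus strand, where the median log2 fold change of the chromosome's genes was 0.25 above that of all such genes.

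Slc25a46, an outer membrane member that acts in mitochondrial fission and lipid transfer, was at 14.5, 11.8 and 11.3 FPKM in shCdGAP and at 11.0, 10.6 and 10.2 FPKM in shCON. It was higher in every shCdGAP library without passing (log2 fold change 0.21, SE 0.12, adjusted p = 0.255). Slc25a47, Slc25a53 and Slc25a35 were under 1 FPKM in all libraries and did not pass. Slc25a35 shares 1151 of its 3677 exon bases with Rangrf, a gene on the opposite strand at 4.997 to 8.60 FPKM. Whether the counting used strand is not stated in the labels or the table. Some of its reads may thus be those of Rangrf. Slc25a48, not tested here and named after its values were seen, had 1, 1 and 1 reads in shCdGAP and 13, 11 and 7 in shCON.

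The other called carriers are scattered over the genome (mm10). Slc25a13 lies on chromosome 6, from 6041218 to 6217173, and Slc25a12 on chromosome 2, from 71271063 to 71367749, both on the minus strand. Slc25a15 lies on chromosome 8, from 22375551 to 22398597, on the minus strand. Slc25a16 lies on chromosome 10, from 62920633 to 62946498, and Slc25a40 on chromosome 5, from 8422850 to 8454797, both on the plus strand. Relative to all genes, the medians of these chromosomes were 0.010 for chromosome 6, -0.19 for chromosome 2, 0.21 for chromosome 8, -0.21 for chromosome 10 and 0.0055 for chromosome 5.

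The authors' deposited table gave 42 carriers an adjusted p, and 9 of them (21.4%, against 23.8% of all genes with one) were under 0.05, 5 higher and 4 lower. These included all 7 carriers called with limma. The others were Slc25a27, with a log2 fold change of 1.44 (adjusted p = 0.00427 in the authors' deposited table), and Slc25a48. Slc25a48 had reads mainly in shCON, the group where it is high, so no fold change or p is given for it.

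Replicate 1 of shCdGAP departed from its fellow replicates for many carriers, and without it a different set passed. On the log2(FPKM + 1) scale, 7 of 39 tested carriers were more than 0.5 above the mean of replicates 2 and 3, and 7 were more than 0.5 below it. Together these are 35.9% of the carriers, against 31.4% of all tested genes. Those above were Slc25a23, Slc25a1, Slc25a36, Slc25a37, Slc25a27, Slc25a30 and Ucp2. Those below were Slc25a10, Slc25a4, Slc25a32, Slc25a22, Slc25a5, Slc25a15 and Slc25a38. The citrate carrier Slc25a1 was 1.09 above and the dicarboxylate carrier Slc25a10 was 1.19 below. The genes were named after their values were seen.

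In shCON replicate 1, 2 carriers were more than 0.5 above its fellow replicates and 1 below, 7.69% against 5.70% of all genes. Slc25a37 was above in both libraries numbered 1, and Slc25a10 was below in both. A proliferation list of 14 genes moved with this library. It was a median of 3.03 lower on the log2 scale in shCdGAP replicate 1 than in replicates 2 and 3, and 0.49 lower in shCON replicate 1. In shCdGAP replicate 1, Rrm2 was at 7.24 FPKM against 105 and 119, and Cdk1 was at 11.3 FPKM against 115 and 108. Of the 14, 0 passed between the groups with limma (0 at an unadjusted p under 0.05, 0 with limma-voom, 0 in the authors' deposited table). Without shCdGAP replicate 1, 5 of the 14 passed as higher in shCdGAP, where 39.3% of all genes passed in either direction. Without any 1 other library, 0 of the 14 passed. The part of this difference in the carrier values was not tested.

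**Figure D4:**
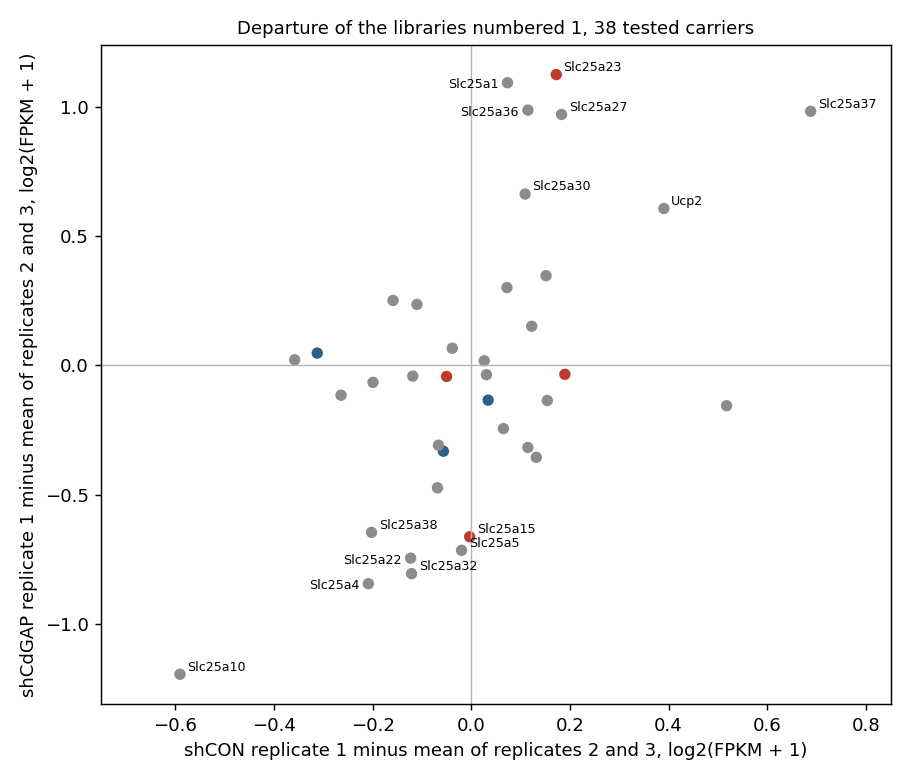
Departure of shCdGAP replicate 1 (vertical axis) and of shCON replicate 1 (horizontal axis) from the mean of replicates 2 and 3 of the same group, in log2(FPKM + 1), for the same 38 tested carriers as in the plot of fold changes. Points are red for carriers that rose, blue for those that fell and grey for the rest, and the 14 carriers more than 0.5 from 0 on the vertical axis are named; shCdGAP replicate 1 covers a wider range than shCON replicate 1.

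Without shCdGAP replicate 1, where 39.3% of all genes passed, limma kept all 7 called carriers and added 7 others. Slc25a5 (log2 fold change 0.36, adjusted p = 0.0212), Slc25a32, the carrier of folate and FAD (0.41, adjusted p = 0.0346), and Slc25a27 (0.51, adjusted p = 0.0201) were higher. Slc25a1 (-0.71, adjusted p = 0.00347), Slc25a37 (-1.02, adjusted p = 0.0182), the pyrimidine nucleotide carrier Slc25a36 (-0.37, adjusted p = 0.0194) and Slc25a39 (-0.34, adjusted p = 0.0198) were lower. Without both libraries numbered 1 the count was 8 higher and 8 lower, with Slc25a47 (0.27, adjusted p = 0.0235) and Slc25a11 (-0.43, adjusted p = 0.00324) added, and 48.3% of all genes passed.

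The genes that work with the carriers were described through 6 lists of 87 genes found in the table, of which 84 were tested. Of these, 8 rose and 5 fell (15.5%, against 21.0% of all genes). The split was 4 higher and 10 lower under library size scaling, and 5 and 5 with the replicate block. It was 16 and 18 without shCdGAP replicate 1, where 39.3% of all genes passed. It was from 3 to 4 higher and from 2 to 7 lower without any 1 other library, where 9.18% to 15.7% passed.

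Among partners for pyruvate, citrate and the malate-aspartate shuttle, which are enzymes and the carrier genes Mpc1 and Mpc2, 4 of 17 rose and 2 fell (35.3%, against 21.0% of all genes). The count ranged from 1 to 4 higher and from 1 to 5 lower when 1 library was left out: Mpc1 and Pcx passed in all 6 such fits, Cs in 2, and Mpc2, the cytosolic malic enzyme Me1 and the glycerol-3-phosphate dehydrogenase Gpd1 in 1, the fit without shCdGAP replicate 1. Mpc1 and Mpc2 form the mitochondrial pyruvate carrier, which belongs to another family. Mpc1 was at 15.5, 15.5 and 15.7 FPKM in shCdGAP and at 5.47, 6.58 and 6.73 FPKM in shCON, higher in every shCdGAP library (log2 fold change 1.20, SE 0.10, adjusted p = 9.6e-04 with limma). Mpc2 was at 8.84, 7.83 and 7.65 FPKM in shCdGAP and at 5.62, 6.19 and 6.03 FPKM in shCON (log2 fold change 0.39, adjusted p = 0.0404). The ratio of Mpc1 to Mpc2 was 1.93 ± 0.155 in shCdGAP and 1.05 ± 0.0721 in shCON (SD, n = 3 each), and did not overlap. Pcx, which makes oxaloacetate from pyruvate, was at 2.69, 2.55 and 2.49 FPKM in shCdGAP and at 4.75, 5.18 and 5.50 FPKM in shCON (log2 fold change -0.78, adjusted p = 0.00361). Cs, citrate synthase, was at 173, 177 and 189 FPKM in shCdGAP and at 255, 238 and 248 FPKM in shCON (log2 fold change -0.46, adjusted p = 0.0175). Me1 and Gpd1 had log2 fold changes of 0.44 and 0.55 (adjusted p = 0.0414 and 0.0457). The soluble shuttle enzymes Got1, Got2, Mdh1 and Mdh2, partners of Slc25a12 and Slc25a13, did not pass (log2 fold changes -0.30, 0.05, -0.09 and -0.07).

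Among 11 tested partners in one-carbon, proline and ornithine metabolism, 1 rose and 2 fell (27.3%, against 21.0% of all genes), a count that includes Aldh1l2. Glud1, glutamate dehydrogenase of the matrix, was at 393, 263 and 237 FPKM in shCdGAP and at 85.3, 112 and 110 FPKM in shCON (log2 fold change 1.50, SE 0.22, adjusted p = 0.00651 with limma). Aldh1l2, a folate enzyme of mitochondria, had 14, 3 and 6 reads in shCdGAP and 239, 270 and 252 in shCON. It had enough reads to be tested only through shCON, the group where it is high, so no fold change or p is given for it. Oat, which uses the ornithine that Slc25a15 carries, did not pass (log2 fold change 0.28, adjusted p = 0.428).

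Of 17 genes for carrier import and passage through the outer membrane, 2 rose and 0 fell (11.8%, against 21.0% of all genes). Mtch1, an outer membrane relative of the carriers under another symbol, was at 84.5, 70.5 and 74.0 FPKM in shCdGAP and at 31.9, 37.2 and 37.5 FPKM in shCON (log2 fold change 1.08, SE 0.12, adjusted p = 0.00220 with limma). Vdac3, an outer membrane channel, was at 55.9, 59.7 and 73.0 FPKM in shCdGAP and at 45.8, 43.9 and 45.2 FPKM in shCON (log2 fold change 0.46, adjusted p = 0.0441). Mtch1 passed in all 6 fits that left out 1 library, and Vdac3 in 1 of them, without shCdGAP replicate 1 (adjusted p up to 0.163 in the others). Timm22, the core of the complex that inserts carriers into the inner membrane, did not pass (log2 fold change -0.22, adjusted p = 0.421).

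Of 14 iron and haem partners, 1 rose and 0 fell (7.14%, against 21.0% of all genes). Of 14 regulators of mitochondrial biogenesis, 0 rose and 1 fell (7.14%, against 21.0%). It was Tfam, which packages mitochondrial DNA, at 10.1, 12.97 and 15.4 FPKM in shCdGAP and at 20.3, 21.4 and 20.8 FPKM in shCON (log2 fold change -0.68, adjusted p = 0.0284). Tfam passed without shCdGAP replicate 1 or 3, and missed the threshold without shCdGAP replicate 2 or any 1 shCON library (adjusted p up to 0.114). Without shCdGAP replicate 1, 3 of the 14 regulators were higher and 5 lower, where 39.3% of all genes passed. Of 11 tested fatty acid and carnitine partners of Slc25a20, 0 passed with limma (2 at an unadjusted p under 0.05, 0 with limma-voom, 0 in the authors' deposited table). The most abundant of these were Acadl, at 75.4 to 86.3 FPKM in shCdGAP and 65.0 to 78.4 FPKM in shCON, and Acadvl, at 33.6 to 53.9 and 41.9 to 45.1 FPKM.

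**Figure D5:**
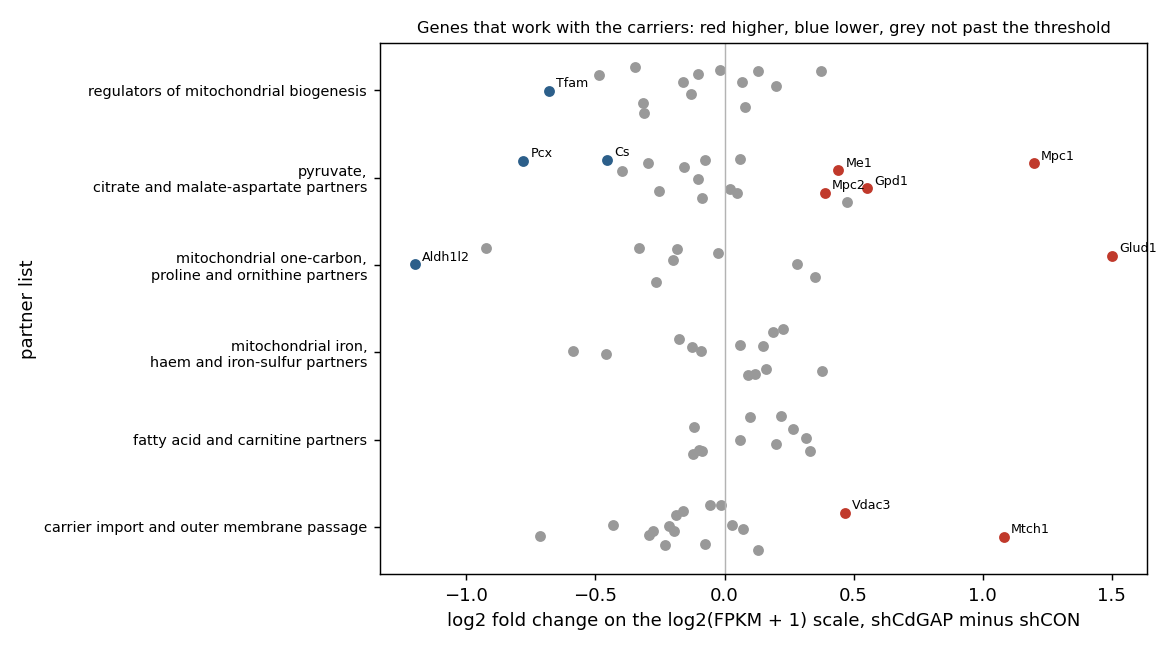
Log2 fold change of shCdGAP over shCON on the log2(FPKM + 1) scale for 82 of the 84 tested partner genes (points), by list; the vertical offset within a list only separates points. The 7 red genes rose, up to Glud1 at 1.50, the 4 blue genes fell, with Aldh1l2 tested only through its shCON reads, and the grey ones did not pass the threshold.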

How the data were processed

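RNA of 6 libraries was sequenced. The submitters' processing notes list Trimmomatic, TopHat2 2.0.13, featureCounts and DESeq2 with mm10 as used by the authors, without roles. The authors deposited 1 table with an FPKM value per library, already divided by size factors, and, per the file headers, their own comparison: a mean signal, a log2 fold change, a test score and p-values. Whole reads were recovered for 100% of FPKM values (tolerance 1e-06). Genes with at least 10 depth-scaled reads in at least 3 libraries and 15 in all entered limma 3.58.1 (R 4.3.3, trend and robust, 2-sided) on log2(FPKM + 1), with Benjamini-Hochberg adjustment over 13483 genes. Steps were tested on simulated data. For limma, these gave all genes the same spread beyond counting error and held no library that stood apart as shCdGAP replicate 1 did. Levels by length came from the table, positions from GENCODE M21. Members and lists were chosen with earlier results of these data known. Named with values are called members, Slc25a1, Slc25a3, Slc25a4, Slc25a5, the Ucp genes, the 2 most abundant of each role group, and up to 4 called partners per list, or the 2 most abundant. A few genes are not reported here by name or in the figures. Others named were chosen after their values were seen. Across genes, departures from the group mean correlated at 0.43, 0.39 and 0.34 between libraries with the same number. The main fit did not use the numbers. Only the replicate block treated them as pairs, on that ground, which comes from these same data and which the labels do not state. As shCdGAP 2 with shCON 3 gave 0.35, numbers 2 and 3 were not told apart. Alternatives were library size and TMM scaling, other filters, a pseudocount of 0.1 FPKM, limma-voom, limma without trend, the replicate block, and left-out libraries.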

Additional observations from a re-analysis of the deposited data

How the results depend on the processing

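The counts of called carriers, 4 higher and 3 lower, were the same 7 genes under TMM and library size scaling, limma-voom, a mean of at least 5 CPM, a pseudocount of 0.1 FPKM and limma without trend. With the replicate block they were 3 and 3, with 5 of the 7 kept; it changed no other carrier call than those of Slc25a15, Slc25a40 and Slc25a37, and 18.2% of all genes passed. Leaving out 1 library gave 1 to 7 carriers higher and 1 to 7 lower, 471 to 2697 genes higher and 780 to 2738 lower over all, 3 to 16 partner genes higher and 2 to 18 lower, and a carrier median from -0.075 to 0.012. The log2 fold change of Arhgap31 then ranged from -0.68 to -0.35, with an adjusted p of 0.0171 without shCdGAP replicate 1; that of Slc25a4 from -0.21 to 0.32, of Slc25a5 from -0.047 to 0.36 and of Ucp2 from -0.030 to 0.30. Without both libraries numbered 1, there were 8 carriers higher and 8 lower, 3312 and 3272 genes over all, 18 and 21 partners, a carrier median of 0.018 and an Arhgap31 log2 fold change of -0.38 (adjusted p = 0.00893). Library size scaling gave 4 partners higher and 10 lower and a carrier median of -0.073. Partners higher numbered 4 without a filter and 5 with the replicate block, and 922 genes were lower at a mean of at least 5 CPM. The sign turned for Slc25a4 under library size scaling (-0.022), without shCON replicate 1 (-0.033) and without shCdGAP replicate 3 (-0.21), for Slc25a5 without shCdGAP replicate 3 (-0.047) and for Ucp2 without shCdGAP replicate 1 (-0.030); none of these passed. The cause of these moves was not tested, and that includes the number of libraries or genes in a fit. Depth left 5 carriers with reads untested, and 6 at 0 reads could not be placed.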
